A study of Canis lupus familiaris with 36 samples.

Results

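The miR-29 family was measured in cardiac hemangiosarcoma (HSA), a malignant tumor of endothelial cells, and in control heart of the dog. Its members were the rows of the deposited count table whose mature name is cfa-miR-29a, cfa-miR-29b or cfa-miR-29c, 3 of the 453 mature miRNAs listed, with 1 row kept per name. All 3 passed the filter on low counts, which left 225 mature miRNAs for testing. The prefix for dog is omitted below.

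MiR-29 miRNAs are best known for repressing mRNAs of the extracellular matrix, among them collagens, elastin and fibrillin, and are called antifibrotic for that reason. In the heart they are abundant in fibroblasts as well as present in muscle cells, and TGF-beta signaling lowers them. In tumors they are known as repressors of DNA methyltransferases and of the survival factor MCL-1. The files used here hold miRNA counts only, so the level of any target mRNA was not analysed here.

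The data came from formalin-fixed, paraffin-embedded (FFPE) heart tissue of 12 dogs, 6 with histologically diagnosed cardiac HSA and 6 controls that died of non-neoplastic causes, with 1 small RNA library from each. No treatment, age or strain entered the grouping, and the splenic samples of the series, 18 HSA and 6 control, were not analysed here. The study reports that its dogs with HSA, not split by organ, were significantly older than its controls. It also states that earlier chemotherapy did not exclude a dog. Age and chemotherapy were not modelled here, and neither can be told apart from condition. The title and the treatment field of the labels name opposite conditions for each cardiac library. Libraries were grouped by title, and with the other field every difference below would change its sign.

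Levels are given in CPM, counts scaled to a common library total, as deposited and after a factor for composition, since both scales give different pictures of the family. The deposited CPM divide each count by the library total over all rows. TMM-normalized CPM divide by the total left after identical rows were merged and low counts filtered out, and by a factor. The factor is chosen so that most miRNAs keep their level between libraries. In HSA replicate 1, for example, these totals were 2344708 and 2018860, so the scales differ in more than the factor. The factors were 0.769 to 0.889 in control and 0.948 to 1.97 in HSA, the highest being that of HSA replicate 2.

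Several features of the libraries bear on the values. Control libraries held 5544912 to 9336949 counts over 1 row per mature miRNA (median 7177953) and HSA libraries 1656084 to 7254770 (median 3375291). The tissue is whole tissue, so fewer cells of a type and less RNA per cell cannot be told apart. The 8 miRNAs typical of muscle summed to 189900 to 271400 TMM-normalized CPM in control and to 942 to 233000 in HSA. HSA replicate 3 was the lowest, with muscle miRNAs almost absent from a library labelled as heart, and held 204390 CPM of miR-122, a miRNA typical of liver. Results without this library are given below. MiR-126, typical of endothelium, was present in every library, at 2371 to 4213 CPM in control and 944 to 4295 CPM in HSA.

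The precursors showed how the members are arranged. MiR-29a has 1 precursor in the table, whereas miR-29b and miR-29c have 2 each, with identical counts in every library, so the counts do not say from which precursor these reads came. In the RefSeq annotation of the dog assembly UU_Cfam_GSD_1.0, which is not the build of the files, all 5 precursors were found by name. MIR29A and MIR29B-1 are direct neighbors there, with no other annotated gene between them. MIR29B-2 and MIR29C-2 form another pair of direct neighbors, and MIR29C-1 is separated from MIR29C-2 by a single annotated locus, LOC609365. The mature members are close in sequence, and how the counting treated reads that fit more than 1 of them is not given in the sources used here.

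MiR-29a was the most abundant member in all 12 libraries, followed by miR-29c and then miR-29b. Their means over all libraries were 4657 CPM for miR-29a, 780 CPM for miR-29c and 217 CPM for miR-29b on the TMM scale, which are ranks 29, 63 and 91 of all miRNAs. Ligation favors some small RNA sequences over others, so these ranks compare reads and not molecules. MiR-22 stood just above miR-29a in the ranking over all libraries and miR-10a just below it, although miR-10a had 8214 CPM in HSA and 966 CPM in control. MiR-29a made up 0.269% (Wilson 95% interval 0.266 to 0.273) of the counts in the control library with the lowest share and 1.01% (0.998 to 1.02) in the HSA library with the highest. Both intervals describe counting error within a library alone and hold no spread between dogs. PCR copies of a molecule are not independent reads, so even this error may be larger than the intervals show.

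On the deposited scale, miR-29a and miR-29b were higher in each HSA library than in any control library. MiR-29a had 5046, 7532, 6172, 6591, 6200 and 4709 CPM in HSA replicates 1 to 6. In control replicates 1 to 6 it had 3064, 2664, 3721, 1904, 2544 and 2831 CPM. The groups did not overlap, and the mean was 2.17-fold higher in HSA.

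MiR-29b had 359, 302, 171, 199, 321 and 290 CPM in the HSA libraries on the same scale. Its control libraries had 148, 116, 150, 127, 99.8 and 136 CPM. HSA replicates 3 and 4 were nearest to the control libraries, which all lay below them. Such a complete separation upward was seen for 24.0% of the 225 miRNAs on the deposited scale, so the members share it with many others.

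MiR-29c had 1715, 879, 280, 737, 963 and 908 deposited CPM in HSA and 547, 533, 710, 352, 372 and 462 CPM in control. Of the HSA libraries, 5 lay above all controls and replicate 3 lay below all of them.

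On the TMM scale, the groups overlapped for every member. MiR-29a had 5306, 4089, 5635, 5987, 5804 and 5758 TMM-normalized CPM in HSA replicates 1 to 6 and 4386, 3645, 5369, 2531, 3768 and 3611 CPM in control. Of the HSA libraries, 4 stayed above all controls, and replicates 1 and 2 fell within the control range, below control replicate 3. In control the mean was 3885 ± 941 CPM (SD, n = 6), against 5430 ± 695 CPM (SD, n = 6) for the HSA libraries.

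MiR-29b had 377, 164, 156, 181, 300 and 355 TMM-normalized CPM in HSA and 212, 158, 217, 168, 148 and 173 CPM in control. HSA replicates 1, 5 and 6 were above all controls and the other 3 lay among them. The means were 255 ± 101 CPM (SD, n = 6) and 179 ± 28.5 CPM (SD, n = 6).

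MiR-29c had 1803, 477, 256, 669, 901 and 1110 TMM-normalized CPM in HSA and 783, 729, 1025, 468, 552 and 590 CPM in control. HSA replicates 1 and 6 were above all controls and replicate 3 was below them all, so the HSA libraries surrounded the control range. The means were 869 ± 548 CPM (SD, n = 6) and 691 ± 200.4 CPM (SD, n = 6). On the TMM scale, 15.1% of the miRNAs had all HSA libraries above all controls, and none of the 3 members did.

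**Figure D1:**
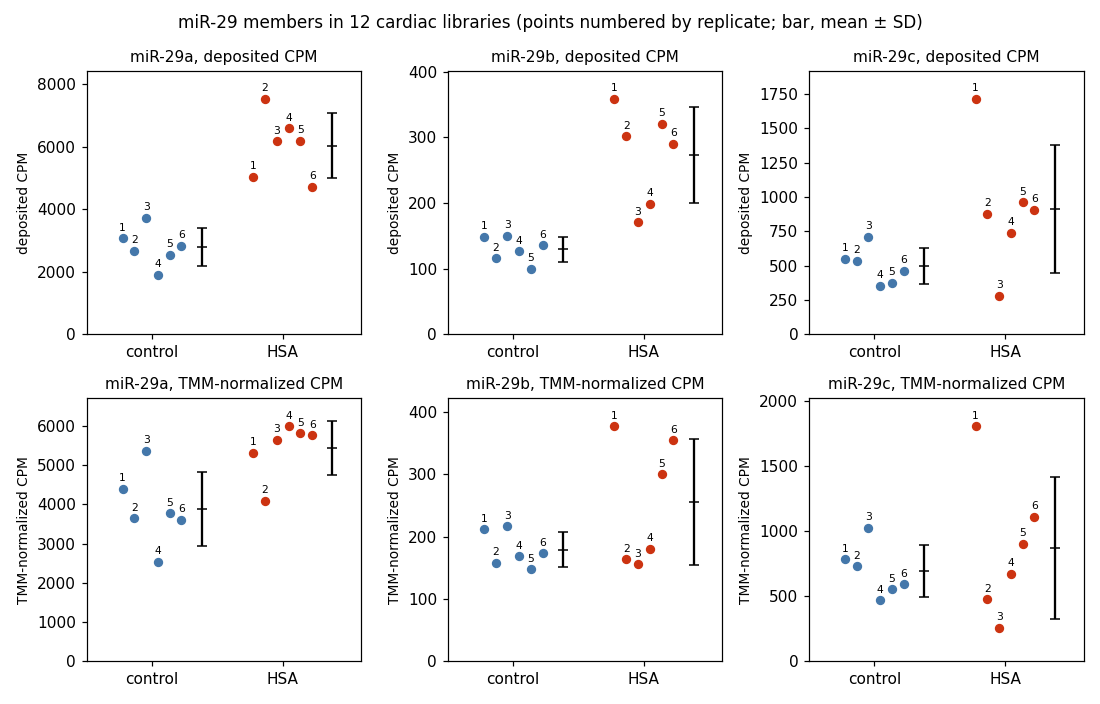
Level of each miR-29 member in 6 control (blue) and 6 HSA (red) libraries, as deposited CPM in the upper row and as TMM-normalized CPM in the lower row, with the replicate number at each point and the mean ± SD as a black bar. On the deposited scale miR-29a and miR-29b show no overlap between the groups, and on the TMM scale all 3 members overlap.

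No member was called in edgeR's quasi-likelihood test, which asked for an adjusted p (Benjamini-Hochberg) below 0.01 together with a log2 fold change of 1 or more in either direction. The log2 fold change of miR-29a was 0.48 with a 95% interval of 0.09 to 0.87 (standard error 0.18, adjusted p = 0.0445). That of miR-29b was 0.51 with an interval of -0.04 to 1.06 (standard error 0.26, adjusted p = 0.123). That of miR-29c was 0.33 with an interval of -0.52 to 1.18 (standard error 0.39, adjusted p = 0.502). At an unadjusted p under 0.05, miR-29a alone passed, here and in DESeq2, which also called 0 of the 3. This is no more than the background, since 33.8% of all miRNAs were higher and 19.6% lower at that level in edgeR, and 46.4% of 308 passed it in DESeq2. The intervals of miR-29b and miR-29c reach past the threshold of 1 and also hold 0, so a change of the size that a call requires was neither shown nor bounded away. The interval of miR-29a lies above 0 and below 1. In the same test 18.7% of the 225 miRNAs were called higher in HSA and 7.11% lower.

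In edgeR's test with TMM scaling, the 3 members sat in the middle of all miRNAs. The median log2 fold change of the 225 tested miRNAs was 0.34, so that miR-29a lay 0.14, miR-29b 0.17 and miR-29c -0.01 from it. Counted from the highest fold change, miR-29b was at rank 105, miR-29a at rank 107 and miR-29c at rank 115 of 225. Their place relative to the median changed with the filter on low counts. DESeq2 was run without that filter. Its median of 308 miRNAs was 0.71, and miR-29a, miR-29b and miR-29c lay -0.29, -0.24 and -0.40 from it. In edgeR without the filter they lay -0.37, -0.35 and -0.53 from a median of 0.83. With the filter and median-of-ratios factors, the scaling that DESeq2 uses, edgeR put them 0.13, 0.17 and 0.007 from a median of 0.30.

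Whether members were called changed with the scaling. With library size as the only scaling, miR-29a had a log2 fold change of 1.04 (adjusted p = 0.00108 from edgeR) and miR-29b of 1.03 (adjusted p = 0.00333 from edgeR), and both were called. The median of all miRNAs was then 0.97, and 30.2% of them were called higher. Relative to that median the members were at 0.07, 0.06 and -0.13, in the order miR-29a, miR-29b and miR-29c. Limma on log2 of the deposited CPM plus 1 also called miR-29a, at 1.13 (adjusted p = 0.000977), and miR-29b, at 1.04 (adjusted p = 0.00298). The median over all miRNAs was then 0.74, and 23.6% of them were called higher. From that median miR-29a lay 0.39, miR-29b 0.30 and miR-29c -0.0012. Over the 13 alternatives that kept all libraries, the adjusted p ran from 0.000977 to 0.0920 for miR-29a, from 0.00285 to 0.230 for miR-29b and from 0.0615 to 0.785 for miR-29c.

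**Figure D2:**
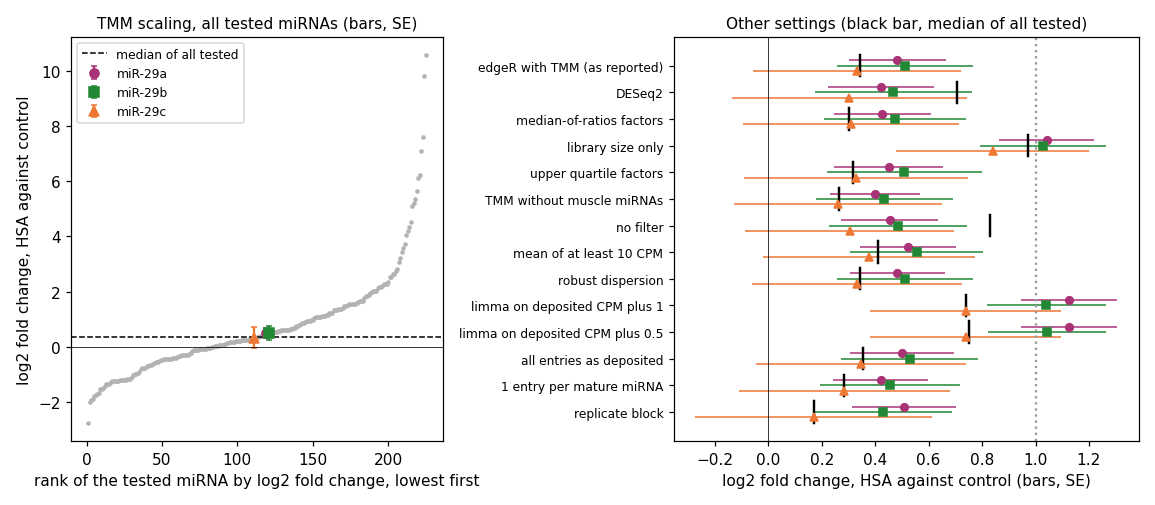
Left, log2 fold change of HSA against control for the 225 tested miRNAs in rank order, with the members and their standard errors in color and the median of 0.34 as a dashed line. Right, the members' log2 fold change (bars, standard error) under each setting that kept all libraries, with the median of all miRNAs as a black bar and the threshold of 1 as a dotted line. MiR-29a and miR-29b move to about 1 only in the 3 settings that lack a composition factor, where the black bar is also higher than in the reported fit. The bar is raised too with DESeq2 (0.71), which was run without the filter, and with edgeR without it (0.83). The members stay between 0.30 and 0.48 there.

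The place of a member among the miRNAs of its own library does not depend on either scale. It does depend on the levels of the other miRNAs, so it can move without a change in the member itself. MiR-29a was at ranks 22 to 27 by count in the HSA libraries and at ranks 28 to 38 in the control libraries, without overlap but with neighboring ranks at the edge. For 4.89% of the 225 miRNAs, all HSA libraries had a rank nearer the top than all control libraries. MiR-29c was at ranks 44 to 88 in HSA and 54 to 62 in control. MiR-29b was at ranks 70 to 107 in HSA and 83 to 89 in control. Ranks of the 2 less abundant members thus spread on both sides of the control range in HSA.

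Leaving out single libraries did not bring any member to a call with TMM scaling. Without HSA replicate 3, the library poor in muscle miRNAs, the log2 fold changes were 0.47 for miR-29a (adjusted p = 0.0542), 0.62 for miR-29b (adjusted p = 0.0536) and 0.52 for miR-29c (adjusted p = 0.193), all from edgeR. Without HSA replicate 1, which had the highest miR-29b and miR-29c, miR-29c turned to -0.23 (adjusted p = 0.635 from edgeR). In that fit miR-29a and miR-29b were at 0.24 and 0.15, but the median of all miRNAs was also lower, at 0.08. From that median miR-29a lay 0.165, miR-29b 0.074 and miR-29c -0.304. Without HSA replicate 4, miR-29a was at 0.21 and the median at 0.16. Over the 12 fits that each omitted a library, the adjusted p ran from 0.0179 to 0.415 for miR-29a, from 0.0536 to 0.696 for miR-29b and from 0.193 to 0.763 for miR-29c.

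Ratios between members within a library are free of scaling, and their means did not differ between the groups beyond the spread. The log2 ratio of miR-29c to miR-29a was -2.89 ± 0.97 (SD, n = 6) in HSA and -2.50 ± 0.16 (SD, n = 6) in control, a difference of -0.39 (two-sided exact permutation test, p = 0.433). For miR-29b to miR-29a the difference was -0.08 (exact permutation p = 0.755), and for miR-29b to miR-29c it was 0.31 (exact permutation p = 0.236). The first difference was -0.07 without HSA replicate 3 (exact permutation p = 0.866) and -0.65 without HSA replicate 1 (exact permutation p = 0.0563), and the last was 0.13 without HSA replicate 3 (exact permutation p = 0.472). These were the 3 ratios compared, with Benjamini-Hochberg adjusted values of 0.649, 0.755 and 0.649 in the order given. The smallest p that this design allows is 0.00216.

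The spread of the ratios was wider in HSA. For miR-29c to miR-29a, the control libraries lay between -2.77 and -2.32, whereas the HSA libraries had -1.56, -3.10, -4.46, -3.16, -2.69 and -2.37 in replicates 1 to 6. The SD in HSA was 5.87 times that in control for this ratio, 2.00 times for miR-29b to miR-29a and 1.79 times for miR-29b to miR-29c, values given without a test. MiR-29c made up 24.1% (Wilson 95% interval 23.4 to 24.7) of the family's counts in HSA replicate 1 and 4.23% (3.96 to 4.52) in HSA replicate 3. In the control libraries its share stayed between 12.3% and 16.1%. MiR-29a held 70.9% to 93.2% of the family in HSA and 79.9% to 84.3% in control, and miR-29b held 2.58% to 5.04% and 3.28% to 5.32%.

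**Figure D3:**
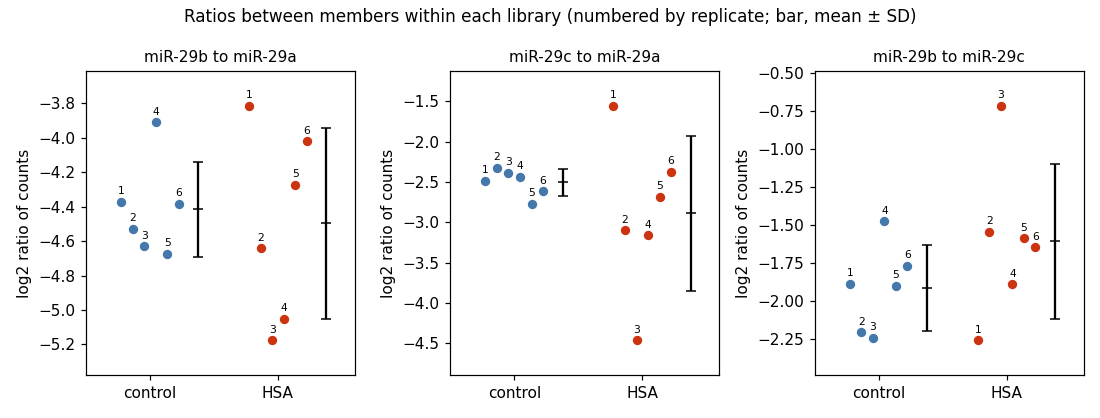
Log2 ratio of the counts of paired members in each control (blue) and HSA (red) library, with the replicate number at each point and the mean ± SD as a black bar. The ratio of miR-29c to miR-29a lies within -2.77 to -2.32 in control and runs from -4.46 to -1.56 in HSA, with HSA replicates 1 and 3 at the ends.

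Within the HSA libraries, miR-29b and miR-29c varied together, whereas no relation of miR-29a to either was detected with 6 libraries. On the TMM scale, miR-29b and miR-29c put the 6 HSA libraries in the same order, with a Pearson r of 0.912 (exact permutation p = 0.00278, adjusted 0.0167) and a Spearman rho of 1.00 (exact permutation p = 0.00278, adjusted 0.0167). The smallest p possible with 6 libraries is 0.00278, and r without the 2 libraries farthest from the median of miR-29b was 0.802. Between miR-29a and miR-29c in HSA, r was 0.189 (exact permutation p = 0.692, adjusted 0.722), or 0.494 without the 2 farthest libraries, and rho 0.0857 (exact permutation p = 0.919). Between miR-29a and miR-29b, r was 0.321 (exact permutation p = 0.722, adjusted 0.722), or 0.0217 without the 2 farthest, and rho 0.0857 (exact permutation p = 0.919).

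In the control libraries no relation passed the correction. MiR-29a and miR-29c had an r of 0.915 (exact permutation p = 0.0181, adjusted 0.0542) and a rho of 0.829 (exact permutation p = 0.0583, adjusted 0.175), and r without the 2 farthest libraries was 0.615. For miR-29b, r was 0.637 with miR-29a (exact permutation p = 0.163, rho 0.486, r 0.815 without the 2 farthest) and 0.732 with miR-29c (exact permutation p = 0.110, rho 0.714). The last of these became -0.21 without the 2 farthest libraries, so it rested on them. Values were adjusted over all 6 relations, 3 in each group, and the difference between the groups was not tested. Values on the TMM scale share the factor of their library, which can move members together.

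The order of miR-29c in HSA, which was also that of miR-29b, was nearly that of the summed muscle miRNAs. From the highest miR-29c to the lowest, HSA replicates 1, 6, 5, 4, 2 and 3 had muscle sums of 190260, 233010, 94724, 40090, 21821 and 942 TMM-normalized CPM. Replicates 1 and 6 alone change places between these orders. MiR-29a had 5306 CPM in replicate 1 and 5635 CPM in replicate 3, the libraries at the ends of the miR-29c range. The control libraries, with muscle sums between 189900 and 271400 CPM, had less miR-29c than HSA replicates 1 and 6, whose muscle sums lay inside that range. The part of muscle tissue in the levels of miR-29b and miR-29c was not tested.

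**Figure D4:**
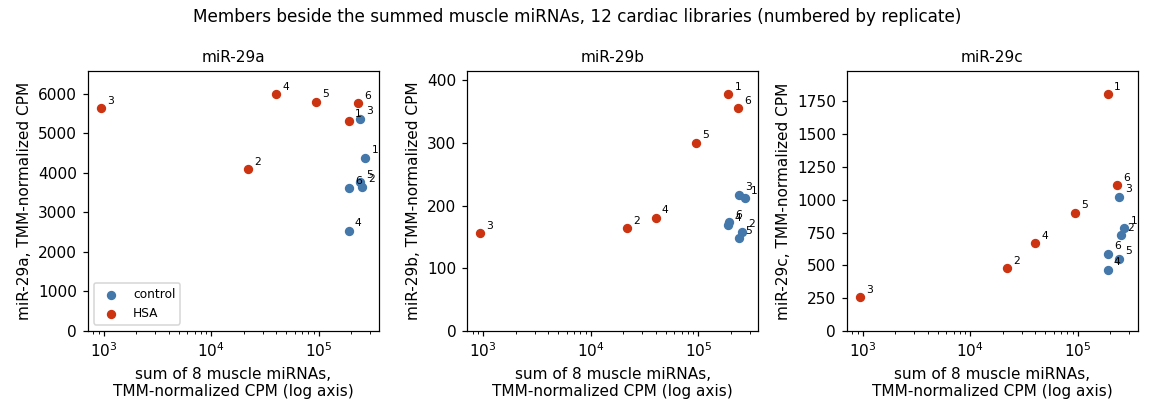
Each member's TMM-normalized CPM against the sum of 8 muscle miRNAs on a log axis, in 6 control (blue) and 6 HSA (red) libraries numbered by replicate. In HSA, miR-29c runs from 256 CPM at a muscle sum of 942 to 1803 CPM at 190260, whereas miR-29a lies between 4089 and 5987 CPM along the whole axis.

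The miRNAs whose pattern over the 12 libraries was most like that of each member, after removal of the group means, differed between members. They are given as a description, by Pearson r of log2 TMM-normalized CPM among 189 miRNAs with a mean of at least 10 CPM. For miR-29c they were miR-1 (r = 0.913), miR-133b (0.907), miR-499 (0.896), miR-206 (0.891) and miR-29b (0.887). The first 4 of these are muscle miRNAs. For miR-29b they were miR-27b (0.918), miR-30b (0.913), miR-628 (0.908), miR-29c (0.887) and miR-140 (0.879). For miR-29a they were miR-101 (0.758), miR-8884 (0.658), miR-374b (0.594), miR-26b (0.584) and miR-374a (0.576). MiR-29c came 18th for miR-29a, with r = 0.389, and miR-29b came 21st, with r = 0.347.

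Other miRNAs known from cardiac fibrosis were placed in a list named as antifibrotic or in a list named as profibrotic. Of 13 miRNAs named as antifibrotic, 2 were called lower in HSA and 0 higher in edgeR's test, beside the 7.11% and 18.7% of all miRNAs. At an unadjusted p under 0.05 there were 6 lower and 0 higher, beside 19.6% and 33.8% of all miRNAs, and DESeq2 gave the same numbers for both. MiR-30c, which represses connective tissue growth factor, had a mean of 11528 CPM in HSA (SD 4990, n = 6) against 26347 CPM in control (SD 3513, n = 6). This was a log2 fold change of -1.19 (adjusted p = 0.00456 from edgeR). MiR-30d, of the same family, fell by 1.94 on the log2 scale (adjusted p = 0.00461 from edgeR). Both calls depended on single libraries and on the processing. MiR-30c was called in 6 of the 12 fits without a library (adjusted p up to 0.0126) and lost without HSA replicate 1 or 4 or control replicate 1, 2, 4 or 5. MiR-30d was called in 5 (adjusted p up to 0.0147) and lost without the same libraries or HSA replicate 2. Of the 13 alternatives with all libraries kept, 8 called miR-30c and 11 called miR-30d. Both were lost with upper quartile factors (adjusted p = 0.0103 each from edgeR) and with the replicate block (0.0200 and 0.0197).

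The median log2 fold change of the antifibrotic list was -0.96, against 0.34 for all miRNAs. Its members miR-1 and the miR-133 group are muscle miRNAs and had wide errors, with log2 fold changes of -1.27 (standard error 0.83) for miR-1 and -1.24 (standard error 0.81) for miR-133a. The counts of miR-133a and miR-133c were nearly equal and may be the same reads. With library size as the only scaling, miR-30d was the single miRNA of the list called lower, and the median of the list was -0.45.

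Of 10 miRNAs named as profibrotic, 4 were called higher in HSA and 0 lower, beside 18.7% and 7.11% of all miRNAs, and DESeq2, which tested 9 of the 10, called the same 4. At an unadjusted p under 0.05 there were 4 higher and 1 lower, beside 33.8% and 19.6% of all miRNAs. They were miR-21, known to sustain survival signaling in fibroblasts, miR-132 and miR-212, which share a cluster and are linked to cardiac hypertrophy, and miR-155, a miRNA of activated leukocytes. Their log2 fold changes were 3.23 (standard error 0.39), 2.53 (0.39), 2.54 (0.48) and 2.27 (0.61) in that order. MiR-21, miR-132 and miR-212 were called in all 12 fits without a library, and miR-155 in 3, those without HSA replicate 1, 5 or 6. With all libraries kept, miR-155 was also lost under 8 of 13 alternatives (adjusted p up to 0.121), while miR-132 and miR-212 were lost only with the replicate block (0.0106 and 0.0173) and miR-21 under none. MiR-212 did not pass the filter of a mean of at least 10 CPM, which was 1 of the 13. The other 6 were not called, among them miR-199 at -0.08 (standard error 0.18) and miR-214 at -0.13 (standard error 0.24), both typical of fibroblasts. The median of this list was 0.27, and -0.13 to 0.49 with 1 library left out.

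Markers of other cell types stood beside these values as follows. For comparison, edgeR called 18.7% of the 225 miRNAs higher and 7.11% lower. At an unadjusted p under 0.05 the shares in edgeR were 33.8% higher and 19.6% lower. The 4 miRNAs of fibroblasts and smooth muscle summed to 30330 to 128800 CPM in HSA and 62590 to 93470 CPM in control, and 0 were called by edgeR or DESeq2 or passed an unadjusted p of 0.05. The 4 myeloid and lymphoid miRNAs summed to 578 to 3555 CPM in HSA and 289 to 424 CPM in control. All 4 were called higher by edgeR and by DESeq2. Limma on the deposited CPM plus 1 called 2 of them, miR-223 and miR-142, beside 23.6% of all miRNAs. Of the 4, miR-223 and miR-142 were called in all 12 fits without a library, and miR-150 and miR-155 in 3. With all libraries kept, 9 of 13 alternatives called miR-150. The 4 erythroid miRNAs summed to 6042 to 47680 CPM in HSA and 22300 to 31730 CPM in control, with 1 called higher (miR-144, in 4 of the 12 fits) and 1 lower (miR-486-3p, in all 12). This sum mixes opposite directions, with log2 fold changes of 0.81 for miR-451, 1.77 for miR-144, -1.33 for miR-486 and -2.75 for miR-486-3p. Of 7 epithelial miRNAs 3 were tested and 2 were called higher, with sums of 43.2 to 3285 CPM in HSA and 7.74 to 20.9 CPM in control. The highest sum was that of HSA replicate 5, and the next was 544 CPM in HSA replicate 4. DESeq2 tested all 7 and called 5 higher, beside 52 of 308 miRNAs. MiR-203 was called in all 12 fits and miR-200c in 7. Of the 8 muscle miRNAs 0 were called by edgeR or limma, as were 0 of the 7 that DESeq2 tested, and 1 was lower at an unadjusted p under 0.05 in edgeR. MiR-122 was called higher, in 6 of the 12 fits, and lost without any 1 control library. Its log2 fold change was 10.6, and 3.24 without HSA replicate 3. That library held 204390 CPM of it, against 66.7 to 478 CPM in the other HSA libraries. DESeq2 gave no test of miR-122. Of the 12 alternatives that kept all libraries and tested it, 9 called it, and limma and the replicate block did not. The part of these cells in the members' levels was not tested.

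**Figure D5:**
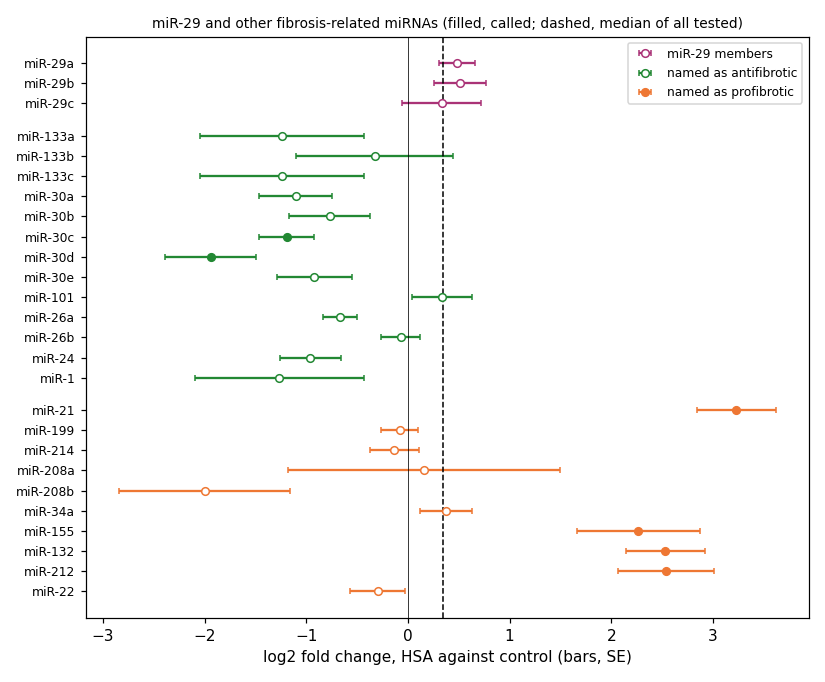
Log2 fold change of HSA against control with its standard error for the 3 miR-29 members (purple), 13 miRNAs named as antifibrotic (green) and 10 named as profibrotic (orange), filled where called, with the median of all tested miRNAs, 0.34, as a dashed line. The members lie near the dashed line, the other antifibrotic miRNAs lie from -1.94 to 0.33, and miR-21, miR-155, miR-132 and miR-212 lie above 2.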

How the data were processed

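Small RNA from FFPE heart was sequenced for 12 dogs. The authors used Cutadapt to trim, Bowtie to align to CanFam3.1 and HTSeq to count on miRNAs of miRBase. The deposited tables give raw counts for each pair of mature miRNA and precursor, and CPM of each library's total, which recomputing matched to within 0.00499 CPM. The labels name a different library kit than the study's methods, which give NEXTflex for heart. Rows of a mature miRNA with identical counts were merged (517 rows to 474), and the row with the highest total stands for each name.

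Counts were tested with edgeR 4.0.16 in R 4.3.3 (quasi-likelihood test, TMM factors, default filter on low counts by condition), which left 244 rows for 225 mature miRNAs. Standard errors were obtained by dividing the log2 fold change by the root of its F statistic, and intervals use the t distribution with the fit's degrees of freedom. The thresholds are the study's, which used DESeq2. DESeq2 1.42.0, without the filter on low counts, and limma 3.58.1 on the deposited CPM were alternatives. All were run on simulated counts with known log2 changes of 2, as many up as down. These are larger than the members' changes, so detection of changes of the members' size was not examined. Ratios and relations used exact permutation tests (Python 3.11.15, scipy 1.17.1). Similarity added 0.5 CPM before log2. P-values measure the spread between dogs. No sequencing batch is given in the labels, and batch and condition cannot be told apart if they coincide.

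The members and the lists of fibrosis and cell type miRNAs were chosen with earlier results of these data known. Named were the members, the listed miRNAs, the 5 miRNAs most like each member and the neighbors in rank.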

Additional observations from a re-analysis of the deposited data

Results flagged for a closer look

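The level of miR-29a in HSA replicate 2, at 4089 TMM-normalized CPM, was far below the other 5 HSA libraries, with a gap to the nearest of 0.641 of the group's range, above Dixon's 95% critical value for 6 libraries. Chance flags about 5% of such groups, and 18 were examined. The same library had the highest deposited miR-29a in HSA, at 7532 CPM, and the largest TMM factor, 1.97. Without it the log2 fold change of miR-29a was 0.48 (adjusted p = 0.0621 from edgeR).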

How the results depend on the processing

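With all libraries kept, the members' log2 fold changes stayed positive under all 13 alternatives, and calls changed under 3 of them, which lack a composition factor. With library size only, miR-29a reached 1.04 and miR-29b 1.03. With limma on the deposited CPM plus 1 they reached 1.13 and 1.04, and with 0.5 added 1.13 and 1.04. MiR-29c was called under none, with 0.17 to 0.84. DESeq2 gave 0.42, 0.47 and 0.30 for miR-29a, miR-29b and miR-29c. With 1 library left out, miR-29a ran from 0.21 to 0.59, miR-29b from 0.15 to 0.62 and miR-29c from -0.23 to 0.52. The difference in log2 ratio then ran from -0.22 to 0.056 for miR-29b to miR-29a, changing sign to 0.056, 0.031 and 0.021 without HSA replicate 3, HSA replicate 4 and control replicate 4, while it ran from -0.65 to -0.07 for miR-29c to miR-29a and from 0.13 to 0.44 for miR-29b to miR-29c. The number of miRNAs called, 58, ran from 24 to 65 with 1 library left out, and was 38 without HSA replicate 4 and 25, 29, 26, 24 and 38 without control replicates 1, 2, 4, 5 and 6. The cause was not tested. With the replicate block 6 were called and no member. The numbers mark different dogs, same-numbered libraries had correlations of -0.28 to 0.06 in their deviations, and none was closest to its own number. Scaling moved the split of calls from 42 higher and 16 lower to 68 and 5 with library size only. Limma on the deposited CPM, which differs in both test and scaling, gave 53 and 5. The counts leave little sampling error for miR-29a, with 11832 or more in each library, and more for miR-29b, with 501 in the lowest.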
